A study of Rattus norvegicus with 18 samples.

Results

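The hypothalamus of rats labelled RYGB-Success was compared with the hypothalamus of rats labelled Pair-Fed, on 3 arrays each. These 6 arrays, of 18 in the whole series, were chosen by their titles and not by any measured value. In Roux-en-Y gastric bypass (RYGB) a small pouch of the stomach is connected to a lower stretch of the small intestine, so that food passes the rest of the stomach by. RYGB-Success animals were losing weight after the operation, and Pair-Fed animals received as much food as the operated rats ate. The other 3 hypothalamus arrays, labelled RYGB-Fail, came from operated rats that were gaining weight, and 9 more arrays held subcutaneous abdominal fat of the same 3 groups. Strain, age, the time after surgery, and whether Pair-Fed rats had a sham operation are not given in the sources used here. The replicates are described as biological, but whether each array held RNA of a single rat is not stated, and p-values measure the spread between these RNA samples.

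The hypothalamus sets hunger, arousal and energy use. Neurons of its lateral part make orexin (from the gene Hcrt), which promotes wakefulness and feeding, and melanin-concentrating hormone (Pmch), which promotes feeding. Arcuate neurons carry the leptin and melanocortin signals, and paraventricular neurons release Trh, Crh, Oxt and Avp. A dissected block also holds glia, vessels, blood and, at its borders, choroid plexus, thalamus, basal forebrain and cortex. In RNA from whole tissue, fewer cells of a type and less RNA per cell cannot be told apart.

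Bright markers separated the arrays by their labelled tissue, and several dimmer markers overlapped between the tissues. Snap25, a protein of nerve terminals, had a signal of 13279 to 25290 on the hypothalamus arrays and 52.0 to 1089 in fat, and Pmch had 2101 to 20005 against 3.20 to 88.7. Adipoq, of fat cells, had 86.0 to 410 against 17271 to 60117 in fat. Of the hypothalamic transcription factors, Nkx2-1 had 199 to 526 (5.33 to 233 in fat) and Sim1 75.0 to 209 (8.32 to 316). Otp had 2.00 to 111 (5.74 to 170), a range that included near-background signals. Hcrt and Pomc also overlapped between the tissues, while Oxt and Avp did not. Success 3 stood apart from the other hypothalamus arrays. Its median correlation with them was 0.904, against 0.929 to 0.959 for the others. Its beta-actin probe sets had the lowest 3' to 5' signal ratio, 6.65, where Pair-Fed 2 had the highest, 179. That 179 rests on a near-background 5' signal of 5.88. The GAPDH ratio of Pair-Fed 2 was 4.78, within the range of 1.58 to 6.22 over the hypothalamus arrays.

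With limma over all 9 hypothalamus arrays, 2 of 18625 tested probe sets passed a Benjamini-Hochberg adjusted p of 0.05, which is 0.0107%. Pkig, an inhibitor of protein kinase A, fell in RYGB-Success, and Alox15, a lipoxygenase, rose. At an unadjusted p under 0.05 there were 2447 probe sets (13.1%), 1293 higher in RYGB-Success (6.94%) and 1154 lower (6.2%). The 3 RYGB-Success and 3 Pair-Fed signals did not overlap for 2006 probe sets that were higher (10.8%) and 1355 that were lower (7.28%). The median difference over all tested probe sets was 0.049 on the log2 scale, 54.4% of them were above 0, and the median SE was 0.31. The share of higher values among the 2447 was 52.8%, and it was 49.2% with quantile normalization. With each array centred on its median it was 12.2%, and there the median difference was -0.19. Centring shifts every difference by the same amount, so list medians and signs after median centring stand against -0.19 and not against 0.049. Leaving out Success 2 raised the number that passed to 65, of which 12 were higher and 53 lower, and both Pkig and Alox15 were among them. Differences below are RYGB-Success minus Pair-Fed in log2 signal ± SE from that fit, signals are the authors' linear values in the order of replicates 1, 2 and 3, and a gene is said to have changed only if it passed.

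**Figure D1:**
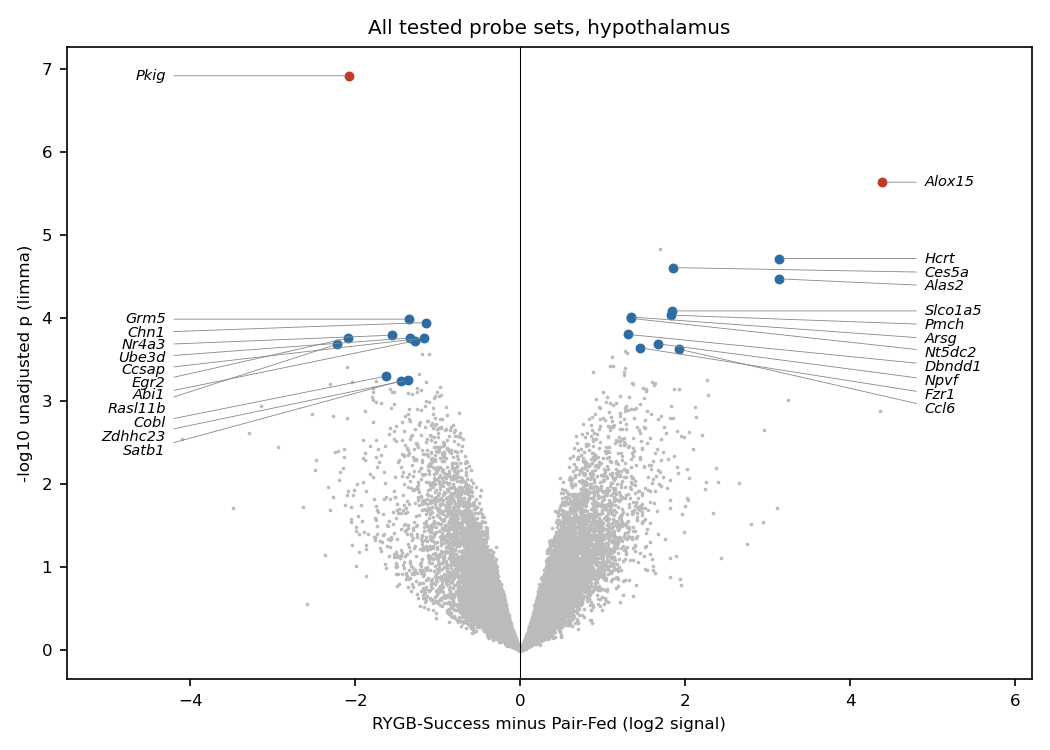
Each grey point is a tested probe set, with the RYGB-Success minus Pair-Fed difference in log2 signal on the x axis and -log10 of limma's unadjusted p on the y axis. Red points passed at an adjusted p of 0.05, and blue points are the named probe sets with the lowest unadjusted p in each direction and groups that did not overlap. Pkig lies alone at the upper left and Alox15 at the upper right.

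Pkig encodes an inhibitor peptide that binds the catalytic subunit of protein kinase A, the kinase through which cyclic AMP acts. Its signal was 8352, 10095 and 9360 in Pair-Fed and 1986, 3074 and 1734 in RYGB-Success. Every RYGB-Success array lay far below every Pair-Fed array, and the RYGB-Fail arrays, at 8261, 7193 and 7655, lay close to Pair-Fed. Pkig fell by 2.07 ± 0.21, a 4.21-fold lower signal (adjusted p = 0.00223). Its difference ran from -2.32 to -1.90 when single arrays were left out, and it passed each time, but not without the mean-variance trend (adjusted p = 0.133).

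The rest of the kinase's family stood elsewhere. All 26 genes of the protein kinase A list that were on the array were tested, 15 with a difference above 0 and 11 below, and their median was 0.087. That median was -0.15 after median centring, 0.039 without Pair-Fed 3, 0.035 without Success 1 and 0.041 without Success 2. Pkia, another inhibitor peptide of the same type, had 0.12 ± 0.18, and Pkib had 0.40 ± 0.37. The catalytic subunits Prkaca and Prkacb had 0.19 ± 0.19 and 0.02 ± 0.16. At an unadjusted p under 0.05 the regulatory subunit Prkar1b was higher (0.52 ± 0.24), and the regulatory subunit Prkar2b (-0.57 ± 0.26), the anchoring protein Akap11 (-0.96 ± 0.35), the phosphodiesterase Pde10a (-1.03 ± 0.38) and Pkig were lower. Akap11 read 1063 on Success 3 against 3677 and 3436 on the other RYGB-Success arrays. Second probe sets of Akap11 and Pde10a had smaller differences, -0.19 ± 0.23 and -0.56 ± 0.49. Pde10a is also a striatal marker, taken up with that region below.

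Alox15 encodes a lipoxygenase that oxidises polyunsaturated fatty acids and, in rodents, is known from leukocytes, immature red cells and other tissues. Its signal was 96.1, 34.2 and 34.2 in Pair-Fed, 1453, 456 and 1554 in RYGB-Success and 101, 30.4 and 79.4 in RYGB-Fail. The lowest RYGB-Success array was above every other hypothalamus array. The difference was 4.39 ± 0.57 (adjusted p = 0.0214). With every array held at no less than 52.7, the lowest mean signal that was tested, the signal was at least 15.7-fold higher. Alox15 did not pass without Pair-Fed 2 (4.14, adjusted p = 0.164), Pair-Fed 3 (4.14, adjusted p = 0.239), Success 1 (4.12, adjusted p = 0.126) or Success 3 (4.08, adjusted p = 0.175), nor without the trend (adjusted p = 0.133).

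Among the 17 eicosanoid genes on the array, 9 were tested, 6 above 0 and 3 below, with a median of 0.12. That median was -0.11 after median centring, -0.14 with the filter that kept the upper 40%, 0.020 without Pair-Fed 3 and 0.045 without Success 1, and 0.22 to 0.23 without Pair-Fed 1, Pair-Fed 2 or Success 3. The cyclooxygenases Ptgs1 and Ptgs2 had 0.12 ± 0.23 and -0.14 ± 0.36. Pla2g5, a secreted phospholipase, had 1.29 ± 0.59 with low signals throughout (20.0 to 44.6 in Pair-Fed and 66.0 to 111 in RYGB-Success), and its Pair-Fed mean lay under the signal needed to be tested. The lipoxygenases Alox5, Alox12 and Aloxe3 lay under the filter on low values.

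Several genes of red cells and leukocytes were high on the same arrays as Alox15. Alas2, the haem synthesis enzyme of red cell precursors, had signals of 88.7, 30.4 and 22.5 in Pair-Fed and 382, 279 and 385 in RYGB-Success. Its groups did not overlap, with a difference of 3.13 ± 0.52 (adjusted p = 0.104) and a signal at least 5.50-fold higher. S100a8, a calcium-binding protein of neutrophils and monocytes, had 39.2, 14.6 and 21.1 against 121, 614 and 1397, a wide spread that also kept the groups apart (4.36 ± 1.09, adjusted p = 0.215). Hbb, a globin, had 12362, 3022 and 5176 against 13411, 12195 and 24317, so that Pair-Fed 1 reached the RYGB-Success arrays (1.45 ± 0.44, adjusted p = 0.233). Slc4a1, the anion exchanger of red cells, was under the filter, with 14.4, 3.52 and 6.24 against 99.5, 87.7 and 96.1.

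Of 8 such markers on the array, 6 were tested and all 6 had differences above 0, with a median of 1.75. Pair-Fed means of Alas2, S100a8 and S100a9 lay under the signal that was needed to be tested. So did that of Alox15, which is not in this list. These genes entered through the arrays where they were high, and the count is a description. The mean log2 signal of the tested markers was 7.21, 6.47 and 6.52 on the Pair-Fed arrays, 8.31, 8.66 and 9.21 on the RYGB-Success arrays and 6.68, 7.92 and 7.47 on the RYGB-Fail arrays. No RYGB-Fail array reached the RYGB-Success arrays in this level. The T cell gene Cd3e (0.26 ± 0.54) and the pan-leukocyte gene Ptprc (0.71 ± 0.34) had smaller differences, and the B cell gene Cd79b was near background on every array. A list of haem synthesis and globin genes, which also holds Alas2, had 12 tested members, 7 above 0 and 5 below. Its median was 0.22, but -0.054 with the filter that kept the upper 40% and -0.021 after median centring. The part that blood in the tissue had in the Alox15 difference was not tested.

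The promoter of Alas2 is shown because it belongs to the red cell gene with the lowest p-value. Of all 33469 RefSeq rat promoters of the same length (assembly GRCr8, 300 bases each), 18.9% hold AGATAA or TGATAA on either strand, the GATA factor motif searched here. The window of Alas2 on chrX:22895200-22895499, plus strand, holds 1 match, printed in capitals.
Alas2: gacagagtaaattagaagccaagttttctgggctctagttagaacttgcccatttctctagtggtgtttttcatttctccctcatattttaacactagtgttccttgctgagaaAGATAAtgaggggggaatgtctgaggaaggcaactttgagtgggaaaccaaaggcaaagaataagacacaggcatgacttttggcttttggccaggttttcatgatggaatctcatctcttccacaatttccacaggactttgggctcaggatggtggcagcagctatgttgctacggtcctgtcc
A match describes these letters and was not tested as a binding site.

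Peptides listed as promoting feeding were high in RYGB-Success for some members and not for others. The list also holds Nts, neurotensin, which is better known for lowering food intake, and the list's median was not taken without Nts. Hcrt, Pmch, Npvf, Gal and Ghrh each had 3 RYGB-Success signals above all 3 Pair-Fed signals, as 10.8% of all tested probe sets had. Npy, Pdyn, Penk, Nts and Pnoc overlapped, and none of the 10 tested members passed. Their median difference was 0.67, against 0.049 over all tested probe sets, and it was 0.29 without Pair-Fed 2. With a filter that kept the upper 40%, where fewer members were tested, it was -0.020.

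Hcrt, the precursor of the orexins, had signals of 69.0, 48.0 and 51.7 in Pair-Fed and 644, 271 and 657 in RYGB-Success. All 3 Pair-Fed arrays were low and all 3 RYGB-Success arrays above them, and RYGB-Fail arrays had 168, 526 and 121. The difference was 3.13 ± 0.49 (8.75-fold, adjusted p = 0.0887), the third lowest unadjusted p among the named genes of the comparison. It passed in 5 of 21 settings, among them without Success 2 (3.55, adjusted p = 0.0282) and without Fail 2 (3.13, adjusted p = 0.0079).

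Pmch, whose neurons lie beside the orexin neurons, was among the brighter peptide genes, with 4391, 5111 and 2101 in Pair-Fed and 10581, 9914 and 20005 in RYGB-Success. Success 3 was the highest and Pair-Fed 3 the lowest of the 6, and the groups did not overlap (1.83 ± 0.34, adjusted p = 0.173). Npvf, the precursor of RFamide peptides of the dorsomedial hypothalamus, had 66.7, 55.5 and 70.2 against 225, 163 and 224 (1.66 ± 0.33, adjusted p = 0.191). Its 3 RYGB-Fail signals, 123, 106 and 108, fell in the gap between the other groups. On the fat arrays of Pair-Fed and RYGB-Success the Npvf probe set read 85.8 to 169, above its Pair-Fed signals in hypothalamus.

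Gal, the precursor of galanin, had 155, 270 and 148 in Pair-Fed and 443, 282 and 632 in RYGB-Success. The nearest arrays, Success 2 and Pair-Fed 2, were almost equal (1.22 ± 0.36, adjusted p = 0.229). Ghrh, which releases growth hormone, had 1.23 ± 0.57 at signals of 18.4 to 136 on these 6 arrays. Npy, the arcuate feeding peptide, had 610, 871 and 1280 against 1118, 722 and 605, with full overlap (-0.16 ± 0.33), and its sign turned without Pair-Fed 3 or Success 3. The opioid precursors Pdyn and Penk had -0.32 ± 0.39 and -0.48 ± 0.53.

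**Figure D2:**
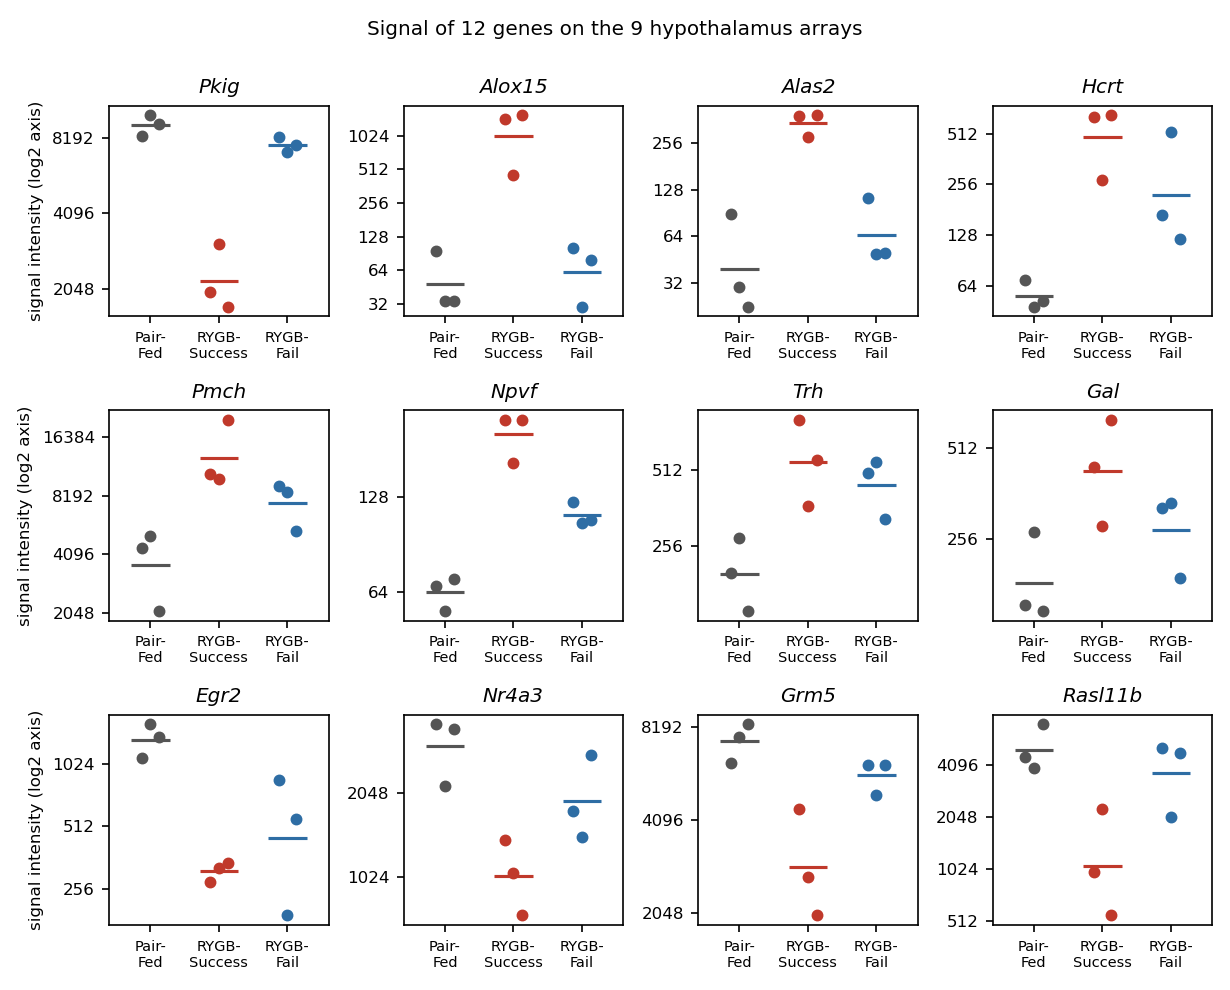
Points are the signals of single hypothalamus arrays, on a log2 axis that differs between panels, for Pair-Fed (grey), RYGB-Success (red) and RYGB-Fail (blue), in the order of replicates 1, 2 and 3, and bars mark the mean of log2 signal. Pkig is low and Alox15 is high on the RYGB-Success arrays alone, while Pmch, Npvf and Trh have RYGB-Fail arrays between the other groups or level with RYGB-Success.

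Neurosecretory hormones and the proteins that process them leaned the same way. Of 18 genes on the array 17 were tested, 15 had differences above 0 (54.4% over all tested probe sets), and the median was 0.41 (0.18 after median centring). At an unadjusted p under 0.05, 6 were higher (6.94% over all) and 1 lower (6.2%), and none passed. Trh, the hypothalamic releaser of thyrotropin, had signals of 201, 275 and 141 in Pair-Fed and 813, 369 and 565 in RYGB-Success. Its groups did not overlap (1.48 ± 0.34, adjusted p = 0.215). Crh, which drives the adrenal axis, had 178, 212 and 125 against 234, 233 and 357, a small but complete separation (0.68 ± 0.31, adjusted p = 0.373).

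Oxt, oxytocin, had 360, 2070 and 1664 in Pair-Fed and 5588, 1802 and 4906 in RYGB-Success. Success 2 lay inside the Pair-Fed range, and the difference was 1.77 ± 0.60 (adjusted p = 0.275). Avp, vasopressin, overlapped in the same way, with 485, 1410 and 1028 against 1849, 1232 and 4851 (1.32 ± 0.48, adjusted p = 0.295). The prohormone Vgf had 0.70 ± 0.29 and Th, the enzyme that starts dopamine synthesis, 1.82 ± 1.14. Sst, somatostatin, had 0.097 ± 0.38, and its sign turned after median centring (-0.14).

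The processing enzymes were less uniform than the hormones. Pam, which amidates peptide hormones at their end, was lower, with 1336, 1944 and 1171 against 688, 1157 and 607 (-0.88 ± 0.28, adjusted p = 0.253). The convertase Pcsk2 had 0.021 ± 0.29 and the carboxypeptidase Cpe 0.070 ± 0.20. Scg5, a chaperone of the convertase, had -0.28 ± 0.16, with lower signals on each RYGB-Success array.

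None of the tested satiety peptides, receptors of feeding peptides or leptin signalling genes passed. Of 12 satiety peptide genes on the array 7 were tested. No member had groups apart, where 10.8% of all tested probe sets were apart and higher and 7.28% apart and lower. At an unadjusted p under 0.05, 2 were higher (6.94% over all) and 0 lower (6.2%). The list's median was 0.16. The median was -0.074 after median centring, 0.46 with the filter that kept the upper 40%, 0.39 without Success 3, and 0.30 to 0.31 without Success 1, Success 2 or Pair-Fed 2. Cartpt had signals of 454, 1103 and 504 in Pair-Fed and 1399, 799 and 1471 in RYGB-Success (0.90 ± 0.40, adjusted p = 0.370). Cck, which also acts as a gut satiety hormone, had 0.71 ± 0.32 (adjusted p = 0.373). Pomc, the melanocortin precursor, was under the filter, with 5.27 to 62.7 over the 6 arrays, and no probe set carried the symbol Agrp or Mc3r alone.

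Of 28 receptors of feeding peptides on the array, 14 were under the filter, among them Ghsr and the orexin receptor Hcrtr1. The other 14 had a median of 0.38 (0.15 after median centring). Of them 11 were above 0 (54.4% over all tested probe sets) and 4 had groups apart, all higher (10.8% over all). Ntsr1, a neurotensin receptor, had 25.1, 33.5 and 46.0 against 85.7, 94.9 and 136 (1.61 ± 0.49, adjusted p = 0.236). Its Pair-Fed mean lay under the signal needed to be tested, so it entered through the arrays where it was high, and the count of 4 is a description. Npy1r had 0.53 ± 0.29, and Mc4r, the melanocortin receptor, was lower in value at -0.91 ± 0.55 with overlapping groups.

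Leptin and insulin signalling had 22 tested genes, 8 above 0 and 14 below, and a median of -0.094 (-0.33 after median centring and -0.16 without Success 2). The kinase Jak1 had -0.51 ± 0.23 and its adaptor Sh2b1 1.19 ± 0.54, with a Pair-Fed mean under the signal needed to be tested. Second probe sets of Jak1 and Sh2b1 had -0.15 ± 0.29 and 0.28 ± 0.49. Lepr, the leptin receptor, had signals of 65.7, 89.0 and 64.4 in Pair-Fed and 45.8, 157 and 29.3 in RYGB-Success, so that 1 array was above and the others below the Pair-Fed range (-0.28 ± 0.60). A second tested probe set of Lepr, also dim, had 64.4, 46.1 and 13.3 against 79.0, 102 and 88.2, with the groups apart and the opposite sign (1.39 ± 0.60), so the direction of Lepr depended on the probe set. Socs3 was under the filter.

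**Figure D3:**
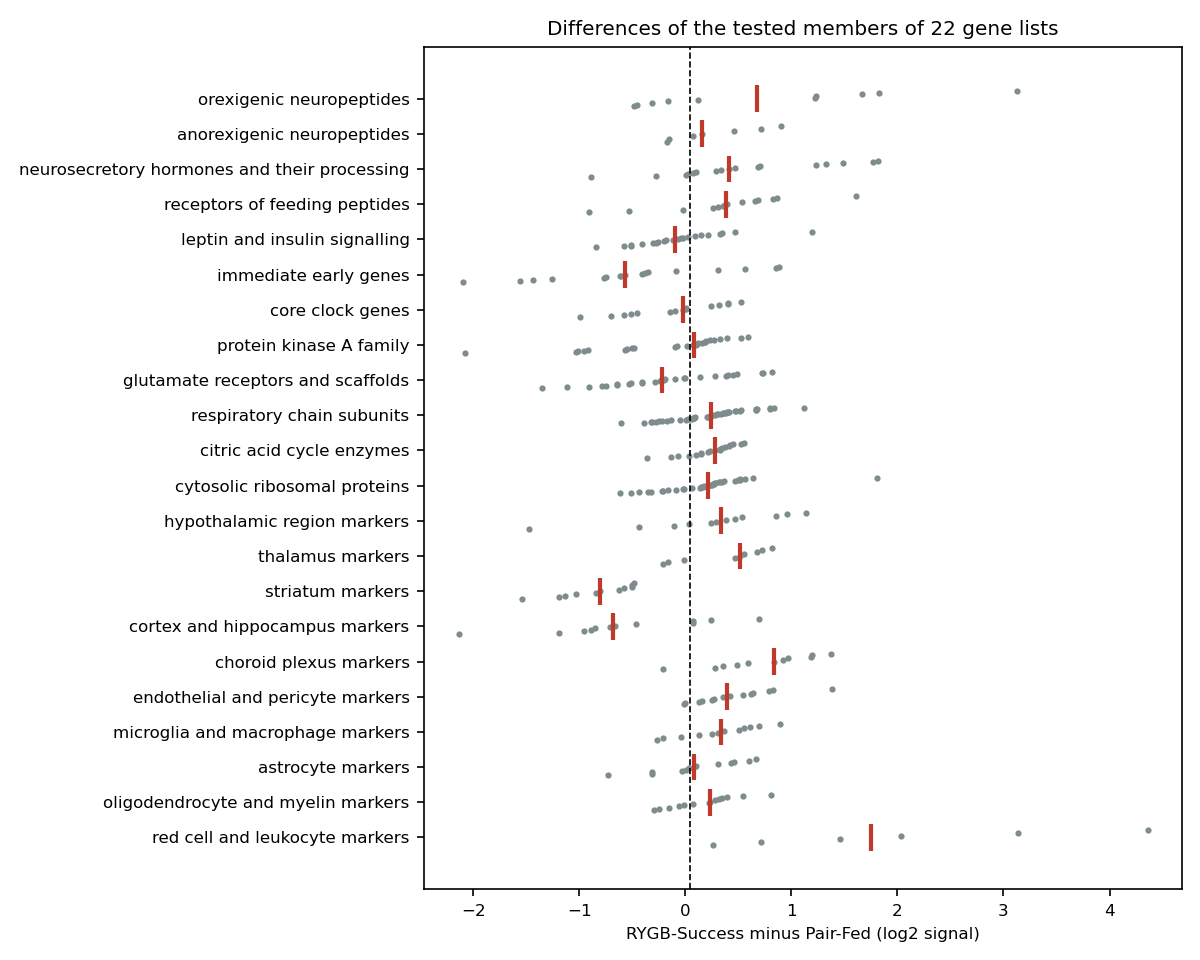
Each grey point is a tested gene of the list named at the left, placed by its RYGB-Success minus Pair-Fed difference in log2 signal. Red bars are list medians and the dashed line is the median over all tested probe sets, 0.049. Red cell and leukocyte, choroid plexus and orexigenic lists lie farthest to the right, and striatum, cortex and immediate early genes farthest to the left.

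Values of markers of regions around the hypothalamus are given beside these peptides, and none of these markers passed. Striatal markers were below 0 in all 11 members tested, with a median of -0.81, where 54.4% of all tested probe sets were above 0. The mean log2 signal of the striatal markers was 9.60, 10.52 and 10.11 in Pair-Fed, 9.77, 9.42 and 8.51 in RYGB-Success and 10.45, 8.28 and 10.19 in RYGB-Fail. Success 1 lay inside the Pair-Fed range, and the lowest level of all was that of Fail 2. The median was -0.35 without Success 3 and -0.49 without Pair-Fed 2. Drd1 and Adora2a, receptors of the striatal output neurons, had -1.19 ± 0.56 and -1.54 ± 0.67 by their brightest probe sets. A second, dim probe set of Adora2a had the opposite sign, with 48.0, 38.2 and 22.2 in Pair-Fed against 71.0, 94.4 and 77.3 in RYGB-Success (1.22 ± 0.56). The striatal median was -0.51 when each gene was represented by the average over its probe sets.

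Cortex and hippocampus markers had a median of -0.68 over 12 tested members, 8 below 0 and 3 with groups apart, all lower (7.28% over all tested probe sets). Their level was 9.45, 9.26 and 9.90 in Pair-Fed and 9.07, 8.87 and 8.98 in RYGB-Success, and the median was -0.37 without Success 3 and -0.38 without Pair-Fed 3. Neurod2, a transcription factor of cortical excitatory neurons, had 263, 196 and 330 against 43.7, 25.9 and 177 (-2.14 ± 0.62, adjusted p = 0.229). Of the layer and area genes, Emx2 had -0.89 ± 0.29, Slc17a7 -0.95 ± 0.42 and Cux2 0.073 ± 0.18 (1.09 ± 0.46 by a second probe set).

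Thalamus markers had a median of 0.51 over 9 members, 3 with groups apart and higher (10.8% over all tested probe sets). The median was 0.28 after median centring, 0.32 without Pair-Fed 3 and 0.32 with array weights. Slc17a6, the vesicular glutamate transporter of thalamus and hypothalamus, had 5511, 5575 and 4144 against 6628, 6840 and 12625 (0.72 ± 0.25, adjusted p = 0.284). Markers of hypothalamic regions had a median of 0.33 (0.097 after median centring) over 12 members, of 21 on the array. Sim1, of the paraventricular nucleus, had 0.96 ± 0.41, and Nkx2-1, of the ventral hypothalamus, 0.29 ± 0.35. Vip, a peptide of the suprachiasmatic nucleus, had 536, 391 and 576 against 1032, 764 and 910 (0.86 ± 0.23, adjusted p = 0.221). The part that the dissection had in the peptide differences was not tested.

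**Figure D4:**
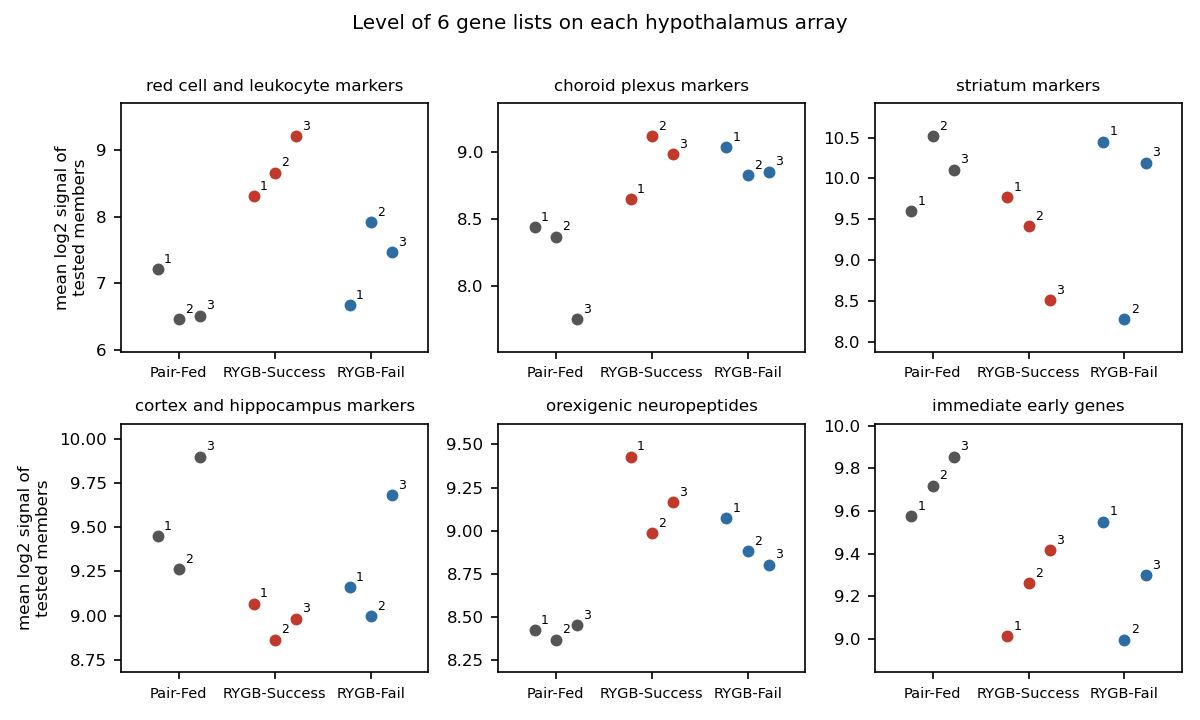
Points are the mean log2 signal of the tested members of each list on a single hypothalamus array, numbered by replicate, for Pair-Fed (grey), RYGB-Success (red) and RYGB-Fail (blue), with a separate y axis for each list. The RYGB-Success arrays are apart from the Pair-Fed arrays for 5 of the lists, and for striatal markers Success 1 lies at 9.77, inside the Pair-Fed range.

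Immediate early genes, which neurons switch on within minutes of activity, were mostly lower in RYGB-Success. Of 17 tested members 13 were below 0, 5 of them at an unadjusted p under 0.05, and 6 had groups apart, all lower, while none passed. Over all tested probe sets 54.4% were above 0, 6.2% were lower at that p, and 7.28% were apart and lower. The list's median was -0.57, and -0.25 without Success 1. Egr2, a zinc finger factor, had signals of 1085, 1581 and 1377 in Pair-Fed and 276, 324 and 340 in RYGB-Success. The RYGB-Success arrays were tightly grouped at the low end (-2.09 ± 0.41, adjusted p = 0.190), and RYGB-Fail spread from 192 to 854. Egr2 passed without Fail 2 (-2.09, adjusted p = 0.0079).

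The orphan receptor Nr4a3 had 3646, 2170 and 3506 against 1391, 1051 and 740 (-1.56 ± 0.30, adjusted p = 0.190), and its second tested probe set had -1.35 ± 0.40. Nr4a1, of the same family, had 231, 256 and 498 against 91.3, 153 and 107 (-1.43 ± 0.42, adjusted p = 0.231). Ier5 had 677, 876 and 1291 against 476, 375 and 314 (-1.26 ± 0.29, adjusted p = 0.215). In each of these the groups did not overlap. Egr1 (-0.75 ± 0.24) and Fosb (-0.61 ± 0.42) were the other members with groups apart.

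Fos did not share the separation, with 1112, 1105 and 1347 against 444, 663 and 1714. Success 3 was the highest array and Success 1 the lowest (-0.57 ± 0.41). Jun (0.30 ± 0.25), Klf4 (0.56 ± 0.43) and Atf3 (0.89 ± 0.61) had differences above 0, while other probe sets of Jun had 0.54 ± 0.30 and -0.27 ± 0.32. Several of these genes are also abundant in cortex and striatum, whose markers were lower in value on the same arrays, and the part of the dissection was not tested.

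The promoters of Egr2, Nr4a1 and Ier5 are set side by side because immediate early genes are known to respond to cyclic AMP and serum response factors. The searched motifs were TGACG, the core of the cyclic AMP response element, on either strand (21.2% of the 33469 promoters hold it), and the CArG box of serum response factor (1.64%). Matches are in capitals and the sequences are RefSeq's, GRCr8, from 250 bases before to 50 after the start. Egr2 lies at chr20:21054392-21054691, minus strand, with 1 CArG box and 1 TGACG core. Nr4a1 lies at chr7:134259888-134260187, plus strand, with 4 TGACG cores. Ier5 at chr13:69822493-69822792, minus strand, holds neither. The window of Fosb, searched but not shown, holds neither. The promoters of Nr4a3 and Egr1 were not used here.
Egr2: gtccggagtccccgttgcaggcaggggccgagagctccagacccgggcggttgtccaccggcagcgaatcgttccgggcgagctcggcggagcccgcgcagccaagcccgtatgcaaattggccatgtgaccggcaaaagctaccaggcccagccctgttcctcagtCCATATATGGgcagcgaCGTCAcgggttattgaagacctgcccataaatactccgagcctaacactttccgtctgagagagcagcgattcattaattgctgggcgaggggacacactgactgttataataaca
Nr4a1: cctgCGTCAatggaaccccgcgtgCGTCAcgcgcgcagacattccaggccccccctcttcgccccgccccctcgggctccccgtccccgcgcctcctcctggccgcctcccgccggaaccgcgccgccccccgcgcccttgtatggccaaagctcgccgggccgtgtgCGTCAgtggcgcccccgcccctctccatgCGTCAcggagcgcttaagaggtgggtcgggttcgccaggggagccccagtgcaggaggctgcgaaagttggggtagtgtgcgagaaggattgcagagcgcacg
Ier5: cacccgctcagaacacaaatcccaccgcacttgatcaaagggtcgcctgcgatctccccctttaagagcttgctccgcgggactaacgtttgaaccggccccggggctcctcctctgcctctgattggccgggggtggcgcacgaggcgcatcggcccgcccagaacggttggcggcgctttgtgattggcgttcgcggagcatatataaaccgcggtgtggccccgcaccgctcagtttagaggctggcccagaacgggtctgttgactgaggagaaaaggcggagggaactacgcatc
The windows thus differ from none to 4 TGACG cores among genes with lower signals, and no match was tested as a site.

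Glutamate receptors and their scaffolds were led by Grm5. It encodes a metabotropic receptor coupled to calcium release and had signals of 6285, 7585 and 8363 in Pair-Fed and 4430, 2685 and 2012 in RYGB-Success. Its groups did not overlap (-1.35 ± 0.25, adjusted p = 0.173), and RYGB-Fail, at 4936 to 6188, lay between. Of 28 tested members 19 were below 0, 7 with groups apart and lower (7.28% over all tested probe sets) and 1 apart and higher (10.8%). Shank2, a scaffold of the postsynaptic density, had 1948, 2012 and 1816 against 1079, 1057 and 1213 (-0.79 ± 0.21, adjusted p = 0.215), and 0.19 ± 0.71 by a dim second probe set. The AMPA receptor subunits Gria3 and Gria2 had -0.64 ± 0.20 and -0.53 ± 0.18. The list's median was -0.22, and 0.0015 without Success 2.

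Chn1, Rasl11b and Abi1 were among the other genes with the lowest p-values and a lower signal. Chn1, a Rac-inhibiting chimaerin of neurons, had 7571, 7963 and 8326 in Pair-Fed and 3587, 4823 and 2696 in RYGB-Success (-1.14 ± 0.22, adjusted p = 0.175). Rasl11b, a small GTPase, had 4513, 3935 and 7014 against 978, 2269 and 552 (-2.22 ± 0.45, adjusted p = 0.191). Abi1, part of the WAVE actin complex, had -1.27 ± 0.25. These genes had no overlap between the groups.

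Not every gene in this group was borne out by its other probe set. A second probe set of Abi1 had -0.011 ± 0.22. Cobl, an actin nucleator, had -1.62 ± 0.36 by its brighter probe set and 1.41 ± 0.57 by a dim second probe set, and so the 2 disagreed in sign. For Satb1, a chromatin organiser, the named probe set had -1.45 ± 0.33 and a brighter probe set -0.26 ± 0.22. Ube3d (-1.33 ± 0.26), Ccsap (-1.17 ± 0.23) and the palmitoyltransferase Zdhhc23 (-1.36 ± 0.31) completed the named genes with lower signals.

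Higher signals with low p-values were found for genes of unlike function. Ces5a, a carboxylesterase, had 134, 97.6 and 81.2 in Pair-Fed and 368, 327 and 414 in RYGB-Success (1.85 ± 0.30, adjusted p = 0.0913). Slco1a5, an organic anion transporter known from choroid plexus, had 132, 127 and 68.8 against 261, 418 and 489 (1.84 ± 0.34, adjusted p = 0.173). Ccl6, a chemokine of myeloid cells, had 60.2, 92.2 and 102 against 225, 255 and 544 (1.93 ± 0.39, adjusted p = 0.192). The groups of these genes did not overlap. Arsg, a lysosomal sulfatase, had 1.34 ± 0.25, Nt5dc2 1.34 ± 0.25, Dbndd1 1.31 ± 0.25 and Fzr1, an activator of the anaphase-promoting complex, 1.45 ± 0.29.

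Choroid plexus markers had differences above 0 in 10 of 11 members, with a median of 0.84 and 5 members apart and higher. Over all tested probe sets 54.4% were above 0 and 10.8% apart and higher. Ttr, the thyroid hormone carrier made by choroid plexus, had 10858, 13421 and 8234 in Pair-Fed and 13120, 20677 and 15085 in RYGB-Success, where Success 1 fell below Pair-Fed 2 (0.59 ± 0.21, adjusted p = 0.295). Kcne2, a potassium channel subunit of its epithelium, had 136, 121 and 69.3 against 225, 234 and 377 (1.37 ± 0.34, adjusted p = 0.215). The list's level was 8.44, 8.37 and 7.76 in Pair-Fed, 8.64, 9.12 and 8.98 in RYGB-Success and 9.03, 8.82 and 8.85 in RYGB-Fail. Both operated groups were thus above the Pair-Fed arrays.

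Endothelial and pericyte markers had a median of 0.39 over 14 tested genes, 0.76 without Success 1 and 0.22 without Success 3. Vwf, the clotting factor carrier of endothelium, had 97.3, 128 and 138 against 275, 241 and 459 (1.39 ± 0.52, adjusted p = 0.302). Microglia and macrophage markers had a median of 0.34 over 12 genes (0.10 after median centring and 0.21 without Pair-Fed 1), and the complement gene C1qb had 0.89 ± 0.32. Astrocyte and myelin markers had medians of 0.082 and 0.23, which became -0.15 and -0.0051 after median centring. The astrocyte median was 0.26 without Success 1, 0.013 without Success 2, 0.021 without Success 3 or Pair-Fed 3, 0.16 without Pair-Fed 2 and -0.12 with array weights. The myelin median was 0.13 without Success 3 or Pair-Fed 3 and 0.040 with array weights. Gfap had -0.31 ± 0.26 and Mbp -0.0090 ± 0.20 (0.25 ± 0.48 by a second probe set).

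Genes of energy metabolism and of the ribosome had small median differences, above the 0.049 of all tested probe sets. After median centring these medians lay near 0, where that of all tested probe sets was -0.19. Respiratory chain subunits were above 0 in 37 of 47 members (54.4% over all tested probe sets). Groups were apart and higher for 12 (10.8% over all) and apart and lower for 0 (7.28%). The list's median of 0.24 became 0.0093 after median centring. Ndufa1, a subunit of complex I, had 1082, 1493 and 1317 in Pair-Fed and 2663, 2160 and 3811 in RYGB-Success (1.12 ± 0.24, adjusted p = 0.215). Cox6b1, of cytochrome oxidase, had 0.80 ± 0.22, and Uqcrh, of the cytochrome bc complex, 0.67 ± 0.18. Ndufa4 stood against them at -0.60 ± 0.21.

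Citric acid cycle enzymes had a median of 0.28 over 19 genes (0.040 after median centring). Glycolytic genes had 0.18 over 18 (-0.055), ATP synthase subunits 0.19 over 13 (-0.044) and ribosomal proteins 0.21 over 35 (-0.025). The glycolytic median was 0.027 without Success 3, 0.28 without Success 1 and 0.30 without Success 2, and that of ATP synthase was 0.32 without Success 1. Aldoc, an aldolase of astrocytes, had 0.60 ± 0.19. The ribosomal protein with the largest difference was Rpl30, a dim probe set with 61.7, 63.6 and 30.6 against 154, 196 and 171 (1.81 ± 0.46, adjusted p = 0.215) and a Pair-Fed mean under the signal needed to be tested. None of these lists held a gene that passed.

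Clock and glucocorticoid genes were mixed in sign. Of 15 tested clock genes 7 were above and 8 below 0. At an unadjusted p under 0.05, 4 were lower (6.2% over all tested probe sets) and 0 higher (6.94%). Groups were apart and lower for 3 (7.28% over all) and apart and higher for 0 (10.8%). The list's median was -0.023. That median had no settled sign, with 0.027 after quantile normalization, 0.00062 with the actin ratio as covariate, 0.078 without Success 3 and -0.26 after median centring. Per2 had 874, 1220 and 1081 in Pair-Fed and 529, 874 and 317 in RYGB-Success, touching only where Success 2 met Pair-Fed 1 (-0.99 ± 0.33, adjusted p = 0.261). The output factors Tef (-0.70 ± 0.24) and Hlf (-0.58 ± 0.24) were also lower in value by their brightest probe sets, while a second probe set of Tef had 0.41 ± 0.26, and Bmal1 had -0.097 ± 0.41. Time of tissue collection is not given in the sources used here.

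Of 13 glucocorticoid genes, Cdkn1a, a cell cycle inhibitor, had 226, 534 and 259 against 991, 990 and 826 (1.57 ± 0.43, adjusted p = 0.221). The mineralocorticoid receptor Nr3c2 had -0.77 ± 0.25 and the glucocorticoid receptor Nr3c1 -0.17 ± 0.22. The classical targets Fkbp5 (0.39 ± 0.30), Sgk1 (0.15 ± 0.27) and Tsc22d3 (0.068 ± 0.21) did not pass. The list's median was 0.097 and its sign was not settled. It was -0.14 after median centring, -0.19 with array weights, -0.10 without Pair-Fed 3 and -0.072 without Success 3, but 0.31 without Success 1, 0.19 without Pair-Fed 2 and 0.17 without Pair-Fed 1. The 18 lists not described here had medians from -0.43 (meninges and fibroblast markers) to 0.93 (pituitary markers, with 1 gene tested).

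Beside the RYGB-Fail arrays, Pkig was the gene that separated the operated groups most clearly. RYGB-Success minus RYGB-Fail was -1.81 ± 0.21 for Pkig (adjusted p = 0.0116), the 1 probe set of 18625 that passed (0.00537%), with 1120 at an unadjusted p under 0.05 (6.01%). Alox15 had 4.01 ± 0.57 in that comparison (adjusted p = 0.0582) and Alas2 2.40 ± 0.52 (adjusted p = 0.784). RYGB-Fail minus Pair-Fed had 0 probe sets that passed in limma (0.0%), with 445 at an unadjusted p under 0.05 (2.39%). These comparisons share arrays with the main one, so their values are given side by side only.

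For the peptides, RYGB-Fail minus Pair-Fed was 1.99 ± 0.49 for Hcrt, 1.05 ± 0.34 for Pmch, 0.81 ± 0.33 for Npvf and 1.18 ± 0.34 for Trh. RYGB-Success minus RYGB-Fail was 1.14 ± 0.49, 0.77 ± 0.34, 0.85 ± 0.33 and 0.31 ± 0.34 for the same genes. Egr2 had -1.57 ± 0.41 in RYGB-Fail against Pair-Fed and -0.53 ± 0.41 in RYGB-Success against RYGB-Fail. For Grm5 the corresponding values were -0.36 ± 0.25 and -0.99 ± 0.25.

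In subcutaneous fat the same comparison gave other values for several of these genes, but no difference between the tissues passed. Of 15531 probe sets tested in both tissues, 0 passed for the difference in limma (0.0%), with 1283 at an unadjusted p under 0.05 (8.26%). Alox15 had 3.99 ± 0.85 in fat and a difference between tissues of 0.39 ± 1.11 (adjusted p = 0.948). Pkig had -0.81 ± 0.40 in fat and a difference of -1.26 ± 0.47 (adjusted p = 0.500). Nr4a3 had 0.88 ± 0.37 in fat, opposite in sign to hypothalamus, and Ccl6 -1.09 ± 0.47, and their differences between tissues were -2.44 ± 0.48 (adjusted p = 0.233) and 3.01 ± 0.65 (adjusted p = 0.246). Without the first RYGB-Success fat array 41 probe sets passed for the difference, and with array weights 35.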

How the data were processed

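RNA of 9 hypothalamus and 9 fat samples was extracted with Qiagen RNeasy and labelled with NuGEN WT-Ovation, per the labels' protocols. The authors deposited a linear signal intensity for each probe set. The submitters' processing notes name MAS5 and GCOS, whose versions and settings are not given in the sources used here. The mean after trimming 2% at each end was 500 on every array, so the deposited intensities were scaled to a common mean, and bright probe sets can shift all others. Median signals of the hypothalamus arrays were 91.1 to 127, and the number of arrays limits the precision.

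Of 31099 probe sets, 57 controls were left out. The platform annotation gave 20826 probe sets 1 symbol, 436 several and 9780 none, and 20758 matched a RefSeq gene. Signals were taken to log2 with no pseudocount, and the upper 60% by mean over the 9 hypothalamus arrays, 18625 probe sets, were tested with limma 3.58.1 in R 4.3.3 (lmFit, eBayes with trend, 2-sided, Benjamini-Hochberg threshold 0.05) over all 3 groups. MAS5 signals near the low end scatter widely on a log scale. The step was checked on simulated data. The tissue difference was an interaction over probe sets tested in both tissues. Each listed gene was represented by its brightest probe set. Lists are described by counts and medians.

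Named are up to 12 genes per direction (those that passed, then the lowest unadjusted p with groups apart and a fold of at least 1.5), up to 4 members of each described list, and anchor genes of hypothalamic biology. Other members stand as examples of their role and were chosen after their values were seen. The members and lists were chosen with earlier results of these data known. Tables and plots were made with Python 3.11.15, pandas 2.3.3 and matplotlib 3.10.9. Alternatives were a pseudocount, other filters and normalizations, array weights, the 6 arrays alone, no trend, the actin ratio as covariate, a replicate block and leaving out each array.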

Additional observations from a re-analysis of the deposited data

How the results depend on the processing

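The number of probe sets that passed, 2, was 3 with a pseudocount of 67.6, 4 with arrays held at the filter signal, 1 with the upper 40%, 6 after median centring, 6 with array weights, 5 with the 6 arrays alone and 0 without the trend (limma, 2302 at an unadjusted p under 0.05). Leaving out single arrays gave 1 to 65, with 65 without Success 2, 5 without Fail 2 and 1 when Success 3, Pair-Fed 2 or Pair-Fed 3 was left out. Same-numbered arrays did not deviate together (correlations of -0.163 to 0.0703), and the labels do not pair them. Fits with the replicate block gave 2, and 4 for the tissue difference, where array weights gave 35 and leaving out single arrays 0 to 41. The cause was not tested. Pkig passed in 20 of 21 settings and Alox15 in 15 of 21, and the block changed neither call. With the filter that kept the upper 40%, Alox15 was too dim to be tested.

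Of 2636 values of 133 named probe sets over 20 alternatives, 2583 kept their direction and side of the threshold, 25 newly passed, 6 no longer passed and 22 turned in sign. Turned values were -0.074 for Nucb2 and -0.14 for Sst after median centring, 0.12 for Npy, 0.060 for Nts and 0.089 for Ptpn1 with array weights, and 0.071 for Lepr and 0.21 for Ptpn1 with arrays held at the filter signal. Over single arrays left out, Nucb2 ran from -0.032 to 0.31, Npy from -0.42 to 0.11, Lepr from -0.98 to 0.23, Sst from -0.32 to 0.43, Nts from -0.85 to 0.037, Ptpn1 from -0.54 to 0.50, Snap25 from -0.31 to 0.16, Gfap from -0.55 to 0.017 and Mbp from -0.25 to 0.21. None of these genes was called. Array number and dim MAS5 signals limit what could be told.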
